A study of Mus musculus with 40 samples.

Results

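Otx2, Foxd3, Stmn2, Zic1, Zic2, Zic5, Pax6 and Nes, 8 genes that are used as readouts of the epiblast and of early neural tissue, were measured in mouse embryonic stem (ES) cells on 40 two-color arrays of 3 designs. The members were found as all gene probes that carry one of these symbols, current or older, through accessions, through probes identical on another design or through the gene names of the study. Each gene had 1 probe on each design, and the 60 bases of that probe were identical on all 3 designs, so that the 8 genes make 24 probe entries. They lie among 42006 gene probes of the early arrays, 21052 of the late arrays and 41006 of the arrays of the Nanog experiment.

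The epiblast is the tissue of the early embryo from which all germ layers arise, and ES cells resemble its earliest stage. Otx2 and Zic family transcription factors are known for the passage from the naive to the formative epiblast and, later, for the anterior neural plate. Foxd3 is a forkhead factor known in ES cells, epiblast and neural crest, Pax6 is a paired-box factor of neural progenitors, Nes encodes an intermediate filament of neural progenitors, and Stmn2 encodes a microtubule-binding protein best known from growing neurons. Zic1, Zic2 and Zic5 encode zinc-finger factors of the dorsal neural tube, and transcription of Otx2 is known to respond to retinoic acid (RA).

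The first and second experiments followed ZHBTc4 cells, a 129/Ola line in which both endogenous Pou5f1 alleles are disrupted and Pou5f1 (Oct4) comes from a transgene that tetracycline (Tet) switches off. The early arrays (NIA Mouse 44K Microarray v2.2) hold 0, 3, 6, 12 and 24 hr of Tet with 2 arrays each, and the late arrays (NIA Mouse 22K Microarray Dev2) hold 0 hr and then every day from 24 to 120 hr with 3 arrays each. All these cells, the 0 hr controls included, carry the disrupted alleles and the transgene. Feeder cells had been removed by passages on gelatin in the early and Nanog experiments. In the third experiment (NIA Mouse 44K Microarray v2.1), 4 lines were each grown for 3 days in complete medium with LIF (LIF+), without LIF (LIF-) or with LIF and 1 µM RA, with 1 array for each combination. Its lines are ES 129.3 (129SvEv-Tac), a clone of the same strain with Nanog in the pEF6/IRES neo plasmid (the Nanog EF1 clone), MG1.19 (129Sv) and a clone of that strain with Nanog on the episomal pPYFloxed vector (the Nanog episomal clone). Each transgenic line is 1 clone. Clones were matched to parental lines by strain, since the sources differ: the study's methods name MG1.19 for the episomal and MC1 for the integrated transgene, whereas the deposited design text names EBRTcH3 and MG1.19. For the late arrays the deposited treatment text tells of a different construct, so the titles, which give ZHBTc4 and the hours of Tet, were used. The labels do not say whether replicates are separate cultures, so p-values measure only the spread between these samples, which may be technical. Every array set the sample in Cy3 against Universal Mouse Reference RNA in Cy5 without a dye exchange, and values are log2(Cy3/Cy5). Only differences of 1 probe between arrays are therefore compared, never 1 gene's level with that of another. In these bulk samples fewer cells of a type and less RNA per cell cannot be told apart.

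The probes are shown for Zic5 and Nes, whose changes stayed under 1.5-fold in all comparisons as processed here. The letters show which stretch of RNA these readings come from, read 5′ to 3′ in lower case.
Zic5: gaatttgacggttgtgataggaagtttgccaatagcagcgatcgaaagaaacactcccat
Nes: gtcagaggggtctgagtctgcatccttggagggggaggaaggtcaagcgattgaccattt
The stretches just before a transcription start are shown for Foxd3 and Otx2, the transcription factors that were called lower on both sets of Tet arrays. A 250-base window before the start was held in RefSeq (GRCm38.p6) for 6 of the 8 genes. The motifs searched on both strands were ATGCAAAT, the octamer that Oct factors bind, ACAATG, a Sox motif, and AGGTCA and AGTTCA, the half-sites that RA receptors bind. Of 27025 such windows, 1.59% hold the octamer, 10.9% ACAATG, 14.0% AGGTCA and 11.9% AGTTCA.
Foxd3, chr4:99656049-99656298, + strand: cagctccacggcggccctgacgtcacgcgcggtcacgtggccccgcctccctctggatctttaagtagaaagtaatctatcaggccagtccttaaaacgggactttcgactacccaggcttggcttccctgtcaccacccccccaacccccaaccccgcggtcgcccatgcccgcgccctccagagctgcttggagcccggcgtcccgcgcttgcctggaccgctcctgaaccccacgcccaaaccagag
Otx2, chr14:48667645-48667894, - strand: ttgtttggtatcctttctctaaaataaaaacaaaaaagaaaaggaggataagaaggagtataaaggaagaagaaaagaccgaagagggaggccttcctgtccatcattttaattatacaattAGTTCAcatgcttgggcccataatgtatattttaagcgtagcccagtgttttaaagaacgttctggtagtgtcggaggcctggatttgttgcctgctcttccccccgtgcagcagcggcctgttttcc
The capitals mark AGTTCA, which starts at position -128 relative to the most upstream of the 4 Otx2 starts. None of the motifs lies in the Foxd3 window or in the other Otx2 windows. Beyond these, the Nes window held AGTTCA and the Zic5 window AGGTCA, each on the strand opposite to the gene, and neither the octamer nor ACAATG was found in any window of the members. These matches are descriptions of letters and say nothing of binding.

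Pou5f1, the gene that Tet switches off, was read by the probe present on all designs. Its log2 ratio on the early arrays was 2.92 and 1.52 before Tet, 0.29 and 0.48 after 3 hr, -0.36 and -0.26 after 6 hr, -0.17 and -0.47 after 12 hr, and -0.53 and -0.61 after 24 hr. It was, on the late arrays, 1.91, 2.40 and 2.04 before Tet and between -0.30 and 0.12 at every later time. All arrays with Tet thus lay below all arrays before Tet of the same set, while the 0 hr arrays of the early set differed widely. A second Pou5f1 probe on the early design changed by -0.55 after 24 hr (limma, adjusted p = 0.0285).

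Foxd3, Otx2 and Stmn2 fell on both sets of Tet arrays, and they did so at different times. Foxd3 was already lower after 6 hr. Otx2 and Stmn2 were first called after 24 hr, and Stmn2 went on falling to 120 hr. All Otx2 readings from 48 hr on were below the level of the negative controls, where a further fall cannot be seen. No member was called higher on either set. Calls required at least a 1.5-fold change and an adjusted p under 0.05 over all probes. Shares of all genes count 1 probe for each symbol and every probe without a symbol, the larger part on both 44K designs (25103 unnamed probes against 13903 symbols on v2.2, 23763 against 13920 on v2.1). On the early arrays 4 of the 8 members were called lower at some time, against 1.99% of all genes tested, and 0 were called higher, against 7.47%. With the study's error variance, which uses the larger of a probe's own variance and that of probes of similar intensity, none of the 4 early calls held (adjusted p after 24 hr of 0.121 for Foxd3, 0.139 for Stmn2, 0.17 for Otx2 and 0.214 for Pax6, in limma's contrasts), and the 3 late calls held. Late in the course 3 of the 8 were called lower, against 10.6%, and 0 higher, against 14.6%.

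Foxd3 was the first to move. Its log2 ratios on the early arrays were 2.37 and 2.40 before Tet, 1.70 and 1.77 after 3 hr, 0.90 and 1.11 after 6 hr, 0.67 and 0.45 after 12 hr and 0.43 and 0.27 after 24 hr. The 2 arrays of each time lay below both arrays of every earlier time. After 6 hr, the first called time (change -1.38, limma, adjusted p = 0.00639), Foxd3 was the only member called lower (against 0.0949% of all genes), and after 12 hr it was again the only one (against 0.379%, change -1.83, limma, adjusted p = 3e-04). The change after 3 hr had an adjusted p of 0.478 (limma), although both arrays lay below both controls. The late arrays gave ratios of 2.25, 2.42 and 2.43 before Tet and of 0.76, 0.62 and 0.61 after 24 hr. From 48 hr on the 12 arrays lay between 0.22 and 0.58. The change was -1.70 (SE 0.08) after 24 hr and -2.03 after 120 hr (limma, adjusted p = 1.93e-10 and 1.86e-12), and no step between consecutive late times was called.

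Otx2 stayed level for the first 12 hr of Tet. Its log2 ratios were 3.68 and 3.65 before Tet, 3.61 and 3.55 after 3 hr, 3.68 and 3.54 after 6 hr, 3.77 and 3.78 after 12 hr and 2.58 and 2.75 after 24 hr. The changes from 0 hr at 3, 6 and 12 hr were -0.09, -0.06 and 0.10, none of them called, and that after 24 hr was -1.004 (SE 0.09, limma, adjusted p = 0.000284). Between 12 and 24 hr alone it fell by 1.11 (limma, adjusted p = 0.000867). Otx2 ratios on the late arrays were 3.27, 3.22 and 3.31 before Tet, 2.24, 2.18 and 1.65 after 24 hr and 0.34, 0.31 and 0.41 after 48 hr. At 120 hr they were 0.02, 0.12 and 0.06, so that the groups at 0, 24 and 48 hr did not overlap and the later arrays lay close together. Otx2 fell by 1.67 from 24 to 48 hr (limma, adjusted p = 1.26e-08). Later steps, between readings that were not above the negative controls, were -0.19, -0.06 and -0.04, and none was called. The total change after 120 hr was -3.20 (limma, adjusted p = 1.16e-13), a size set by background at its lower end.

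Stmn2, the microtubule-binding protein, fell 29.5-fold over 120 hr and stayed above the negative controls throughout. Its log2 ratios on the early arrays were 1.58 and 1.96 before Tet, 1.70 and 1.76 after 3 hr, 1.62 and 1.75 after 6 hr, 1.46 and 1.39 after 12 hr and 0.39 and 0.38 after 24 hr. The change after 12 hr was -0.34 (limma, adjusted p = 0.182) and after 24 hr -1.39 (SE 0.12, limma, adjusted p = 0.000217), most of it between 12 and 24 hr (-1.04, limma, adjusted p = 0.00367). On the late arrays the ratios were 1.60, 1.74 and 1.59 before Tet, 0.24 and 0.30 on the 2 arrays of 24 hr on which the spot was not marked as an outlier, and -1.35, -1.31 and -1.36 after 48 hr. They went on to -2.14, -2.20 and -2.21 after 72 hr, -2.53, -2.67 and -2.71 after 96 hr and -3.11, -3.26 and -3.35 after 120 hr. No late time overlapped another. Of the late steps, 3 were called, with -1.61 from 24 to 48 hr (limma, adjusted p = 6.06e-10), -0.84 from 48 to 72 hr (2.58e-07) and -0.61 from 96 to 120 hr (4.64e-05). The step of -0.45 from 72 to 96 hr had an adjusted p of 0.000342 (limma) but was under 1.5-fold.

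The steps put these counts beside the rest of the genes. From 12 to 24 hr on the early arrays 2 members were called lower (Otx2 and Stmn2), against 0.692% of all genes. For the late steps the counts were 2 from 24 to 48 hr (Otx2 and Stmn2, against 1.65%), 1 from 48 to 72 hr (Stmn2, against 0.82%), 0 from 72 to 96 hr (against 0.241%) and 1 from 96 to 120 hr (Stmn2, against 0.159%). Against 0 hr, 4 members were called lower after 24 hr on the early arrays, where 1.92% of all genes were. Foxd3, Otx2 and Stmn2 were called lower at each late time, where the share of all genes was 3.62% after 24 hr, 4.8% after 48 hr, 6.39% after 72 hr, 7.26% after 96 hr and 8.52% after 120 hr. All late changes share the 0 hr arrays. The median change over the 8 members after 120 hr was -0.30, against 0.00 over all genes.

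**Figure D1:**
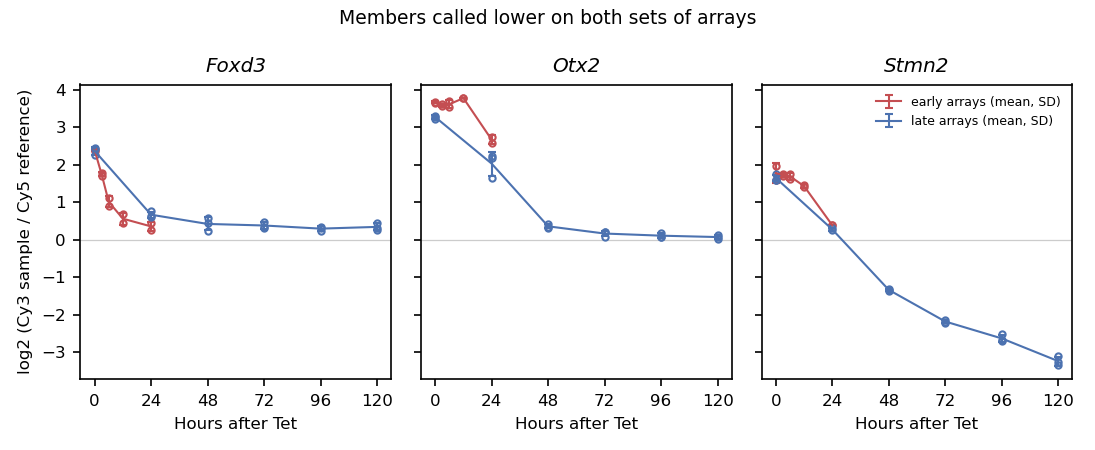
Hours after Tet (x) against log2(Cy3 sample/Cy5 reference) (y) for Foxd3, Otx2 and Stmn2, with each array as an open circle, and lines and bars for the mean and SD of the early (red, n = 2) and late (blue, n = 3, for Stmn2 after 24 hr n = 2) arrays. Foxd3 was at 1.11 or below after 6 hr, Otx2 stayed above 3.5 until 12 hr, and Stmn2 reached -3.35 after 120 hr.

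The change after 24 hr was measured on both designs, and its difference (late minus early) was tested over probes shared by both. It was 0.33 for Foxd3, 0.32 for Pax6, -0.24 for Otx2 and 0.01 for Stmn2 (limma, adjusted p = 0.073, 0.116 and 0.256 for the first 3), and between -0.21 and 0.07 for the others. Thus 0 of the 8 members differed, against 15.2% of all shared probes. At an unadjusted p under 0.05, 2 members differed (Foxd3 and Pax6, limma), and both were called when the processed signals or the deposited values were used, whereas Cy3 alone called Otx2.

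Pax6, the neural progenitor factor, was called lower on the early arrays only. Its log2 ratios there were 0.29 and 0.10 before Tet, 0.34 and 0.06 after 3 hr, -0.05 and 0.32 after 6 hr, -0.41 and -0.36 after 12 hr, and -0.62 and -0.46 after 24 hr. Both arrays after 12 hr and after 24 hr lay below all earlier ones. The change after 24 hr was -0.74 (SE 0.14, limma, adjusted p = 0.00955). Without the first array of 0 hr it was -0.64 (limma, adjusted p = 0.0728). On the late arrays the ratios were 0.46, 0.33 and 0.16 before Tet and between -0.24 and 0.17 later. All late changes of Pax6, from -0.28 to -0.46, had adjusted p-values of 0.00887 or less (limma) but were under 1.5-fold. The smaller size on the late arrays after 24 hr was not called as different here, but was with the processed signals and with the deposited values.

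Nes, the progenitor filament, had log2 ratios of -0.28, -0.30 and -0.43 before Tet on the late arrays, 0.03, 0.26 and 0.22 after 72 hr, and -0.13, -0.05 and -0.01 after 120 hr. All later arrays lay above all 0 hr arrays, with a change of 0.51 after 72 hr (SE 0.07, limma, adjusted p = 2.29e-05), which is under 1.5-fold. The 3 arrays before Tet read 0.952 to 0.986 times the 95th percentile of the negative controls and the later ones 1.02 to 1.14 times, so these values are near background. On the early arrays it was 0.18 and 0.24 before Tet and 0.36 and 0.48 after 24 hr, a change of 0.21 (limma, adjusted p = 0.295).

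No Zic gene was called under Tet. Zic1 was 0.12 and 0.07 before Tet and 0.42 and 0.44 after 24 hr on the early arrays, a change of 0.33 (limma, adjusted p = 0.0628), and its late changes were 0.01 to 0.13. Zic2 changed by 0.12 after 24 hr on the early arrays and by -0.06 to 0.11 on the late arrays, none of them called. Zic5 was 0.35, 0.36 and 0.41 before Tet on the late arrays, 0.06, 0.19 and -0.24 after 24 hr and 0.21, 0.14 and 0.16 after 120 hr. Its change after 24 hr, -0.37 (SE 0.09, limma, adjusted p = 0.00367), was under 1.5-fold, and that after 120 hr was -0.21 with an adjusted p of 0.0685. The 95% intervals after 120 hr were -0.06 to 0.19 for Zic1, -0.16 to 0.13 for Zic2 and -0.39 to -0.02 for Zic5.

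**Figure D2:**
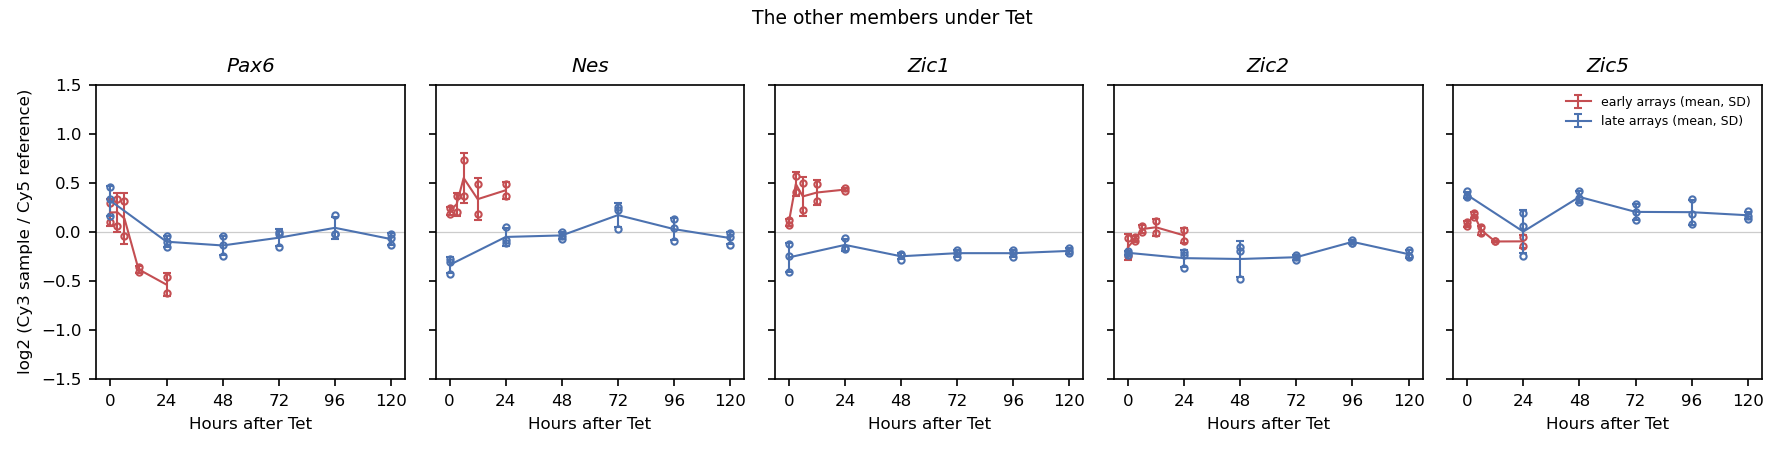
Hours after Tet (x) against log2(Cy3 sample/Cy5 reference) (y) for Pax6, Nes, Zic1, Zic2 and Zic5, with each array as an open circle and lines and bars for the mean and SD of the early (red, n = 2) and late (blue, n = 3) arrays. All values lie between -0.62 and 0.73, and Pax6 at 12 and 24 hr on the early arrays lies below its own earlier arrays.

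How far each probe read above the negative controls limits these values. The Cy3 signal of Stmn2 on the early arrays was 21.1 to 54.2 times the value that 95% of negative controls stay under (their 95th percentile) and 1.22 to 31.9 times on the late arrays. For Foxd3 it was 1.53 to 3.47 times on the early and 1.07 to 2.22 times on the late arrays. Otx2 read 2.37 to 4.78 times that percentile on the early arrays, but on the late arrays it was above it on 6 of 18, and all 12 arrays from 48 hr on lay below it. Its late fall therefore ends at background, and the size of -3.20 is limited by that. Zic1 was above it on 6 and Zic5 on 12 of the 18 late arrays, and Pax6 never exceeded 1.31 times on any Tet array. Nes was above it on 15 of 18 late arrays, and Zic2 read 1.08 to 1.48 times on the early arrays. Zic1, Zic5, Pax6, Nes on the late arrays and Zic2 on the early arrays were thus read near background, which limits the size of a change that can be seen. So were Foxd3 on the late arrays with Tet and Stmn2 after 120 hr. The same percentile was itself 626.5 to 653.3 on the late arrays before Tet and 506.3 to 571.4 on those with Tet, and its part in the small late changes was not tested.

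**Figure D3:**
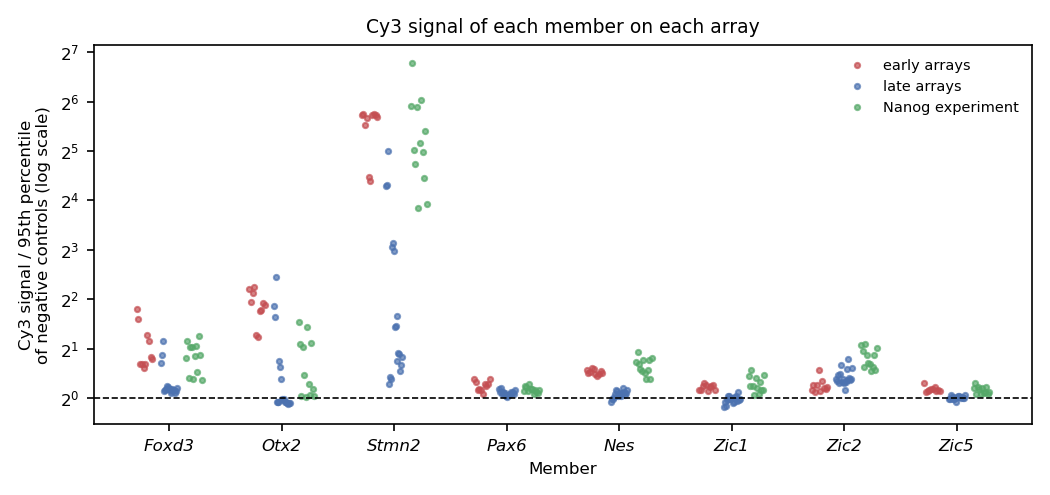
Each member (x) against its Cy3 signal divided by the 95th percentile of the negative controls of the same array (y, log scale), 1 point per array, for the early arrays (red, 10), the late arrays (blue, 18) and the Nanog experiment (green, 12). The dashed line at 1 marks the negative controls. Stmn2 stays above it on all arrays, and Otx2 falls below it on 12 late arrays.

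Among 10491 genes on the late arrays, those whose log2 ratios followed the called members most closely over the 18 arrays were listed. For Otx2 they included Platr10 (Pearson r = 0.992) and Zbtb8a (0.988). For Foxd3 they were Pck2 (0.992), Trh (0.988) and Cobl (0.987), and for Stmn2 they were Ier2 (0.996), Zranb1 (0.992) and Mkrn1 (0.992). Between the members r was 0.956 for Otx2 and Stmn2, 0.897 for Otx2 and Foxd3 and 0.861 for Foxd3 and Stmn2. These are descriptions over arrays that share 6 times and 1 reference, and any gene that falls with time correlates with any other.

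In the Nanog experiment the media were checked first. For Socs3, a target of LIF signaling, LIF- minus LIF+ was -2.05 to -2.93 over the lines, and Cyp26a1, which breaks down RA, was 2.14 to 3.03 higher with RA. The Nanog probe read 2.48 in the Nanog EF1 clone and 1.61 in ES 129.3 in LIF+, but 1.28 in the Nanog episomal clone and 1.91 in MG1.19. Whether this probe reads the transgenes is not given in the sources used here. By real-time PCR the study reports raised Nanog expression in both clones, more so in the episomal one. The Pou5f1 ratio with RA was 2.42 in the Nanog EF1 clone and 0.49, 0.82 and 0.65 in ES 129.3, MG1.19 and the Nanog episomal clone. Without the Nanog EF1 clone the changes with RA against LIF+ were -1.33 for Foxd3, -1.54 for Otx2, -1.42 for Stmn2 and 0.68 for Zic1, all of them called. The 4 lines are not fully independent, since each clone shares its strain with a parental line.

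Withdrawal of LIF and addition of RA moved Otx2 in opposite directions, the only member for which both comparisons were called. Foxd3 and Stmn2 were lower with RA, and Zic1 was higher. Each comparison used line as a block. In LIF- 1 of the 8 members was called higher (Otx2), against 0.504% of all genes, and 0 lower, against 0.523%. With RA against LIF+, 1 was called higher (Zic1), against 4.64%, and 3 lower (Foxd3, Otx2 and Stmn2), against 1.22%. With RA against LIF-, 2 were called lower (Foxd3 and Otx2), against 1.64%, and 0 higher, against 4.05%. The comparisons share arrays. The median change over the members was -0.19 with RA against LIF+, and -0.01 over all genes.

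Otx2 in LIF+, LIF- and RA was 2.19, 3.10 and 0.12 in ES 129.3 and 1.80, 2.63 and -0.01 in MG1.19. In the Nanog EF1 clone it was 1.12, 3.07 and 0.14, and in the Nanog episomal clone 0.94, 2.94 and 0.18. Over the 4 lines the 3 media did not overlap. Otx2 was 1.42 higher in LIF- (SE 0.22, limma, adjusted p = 0.0255) and fell by 1.40 with RA (limma, adjusted p = 0.00414), and RA minus LIF- was -2.83 (limma, adjusted p = 0.000247). With RA its Cy3 signal was only 1.02 to 1.04 times the 95th percentile of the negative controls in all 4 lines, so both falls end near background and their sizes are limited by it. The call in LIF- does not hold without MG1.19 (1.62, adjusted p = 0.165), without the Nanog EF1 clone (1.25, adjusted p = 0.13) or without the Nanog episomal clone (1.23, adjusted p = 0.081), nor in the 2 parental lines alone (0.87, limma, adjusted p = 0.0945), but the direction was the same in 4 of 4 lines. With the study's error variance the adjusted p was 0.368 in LIF- and 0.0534 with RA against LIF+.

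Foxd3 in LIF+, LIF- and RA was 0.68, 0.75 and -0.09 in ES 129.3 and 1.93, 1.77 and 0.22 in MG1.19. It was 1.52, 0.93 and 0.30 in the Nanog EF1 clone and 1.69, 1.97 and 0.18 in the Nanog episomal clone. RA was the lowest medium in all 4 lines, with a change against LIF+ of -1.30 (SE 0.19, limma, adjusted p = 0.00306) and against LIF- of -1.20 (limma, adjusted p = 0.00452). Without MG1.19 the latter was -1.08 (limma, adjusted p = 0.0508), and its adjusted p was 0.0606 with the study's error variance. LIF- and LIF+ differed by -0.10 (limma, adjusted p = 0.873) and went up in 2 lines and down in 2. With RA the Cy3 signal of Foxd3 was 1.29 to 1.44 times the 95th percentile of the negative controls. Both falls with RA thus end near background, and their sizes are limited by it.

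Stmn2 in LIF+, LIF- and RA was 2.46, 2.12 and 1.64 in ES 129.3 and 2.22, 1.45 and 0.41 in MG1.19. It was 2.54, 1.72 and 1.66 in the Nanog EF1 clone and 2.11, 1.24 and 0.49 in the Nanog episomal clone. LIF+ was the highest and RA the lowest medium in every line. Against LIF+ the change with RA was -1.29 (limma, adjusted p = 0.00191) and without LIF -0.70 (limma, adjusted p = 0.0893, lower in 4 of 4 lines), and RA minus LIF- was -0.59 (limma, adjusted p = 0.0575). With RA, ES 129.3 and the Nanog EF1 clone lay at 1.64 and 1.66, and MG1.19 and the Nanog episomal clone at 0.41 and 0.49, a difference between strains that was not tested.

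Zic1, the only member called higher with RA, read 0.25, 0.46 and 1.22 in ES 129.3, 0.03, 0.27 and 0.64 in MG1.19, 0.07, 0.38 and 0.39 in the Nanog EF1 clone and 0.09, 0.16 and 0.56 in the Nanog episomal clone, in the order LIF+, LIF- and RA. RA was the highest medium in each line. The rise against LIF+ was 0.59 (SE 0.11, limma, adjusted p = 0.00799), and it falls below 1.5-fold without ES 129.3 (0.47) and loses the call without MG1.19 (0.59, limma, adjusted p = 0.0772) and with the study's error variance (adjusted p = 0.0709). Its Cy3 signal was 1.04 to 1.49 times the 95th percentile of the negative controls in this experiment.

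The other members gave smaller changes. Nes was 0.45 higher with RA (limma, adjusted p = 0.0062), under 1.5-fold, with ratios of -0.23, -0.26, -0.43 and -0.20 in LIF+ and 0.25, 0.43, -0.24 and 0.22 with RA in ES 129.3, MG1.19, the Nanog EF1 clone and the Nanog episomal clone. Zic5 changed by -0.37 with RA against LIF- (limma, adjusted p = 0.00517), also under 1.5-fold, and lower in 4 of 4 lines. Nes was called higher with RA in the 2 parental lines alone (0.59, limma, adjusted p = 0.0269), and Zic5 was called lower against LIF- with the processed signals (-0.62, limma, adjusted p = 0.00281) and with the deposited values (-0.62, adjusted p = 0.00286). Zic2 changed by 0.17 in LIF- and -0.04 with RA, and Pax6 by -0.18 and -0.16, none of them called.

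**Figure D4:**
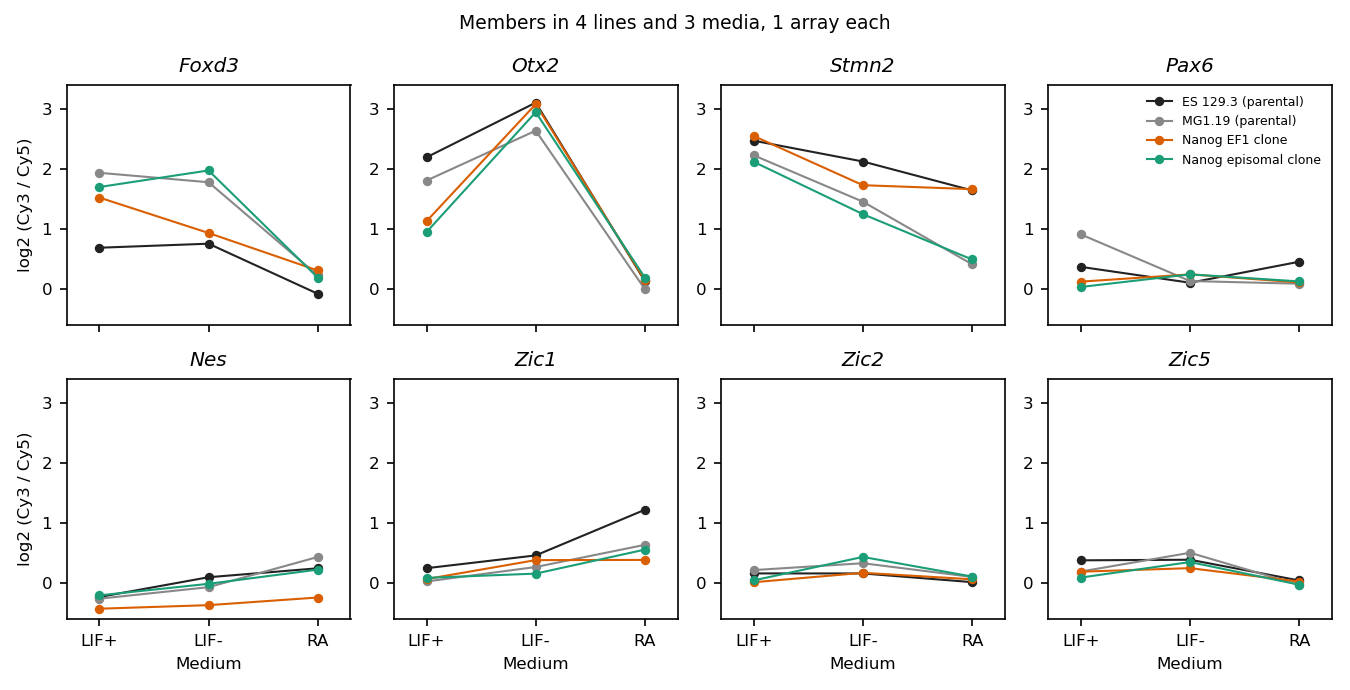
Medium (x) against log2(Cy3/Cy5) (y) for each member, 1 array per point, with a line for each of ES 129.3, MG1.19, the Nanog EF1 clone and the Nanog episomal clone. Otx2 is highest in LIF- and near 0 with RA in every line, Stmn2 falls from LIF+ to RA in every line, and Zic1 is highest with RA.

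The Nanog clones were compared with their parental lines over 6 pairs of the same strain and medium. These pairs come from only 2 clones, each measured in 3 media, so they are not independent. None of the 8 members was called, against 0.00531% of all genes (2 of 37683). Foxd3 differed by 0.22 (limma, adjusted p = 0.391), Otx2 by -0.24 (0.552) and Nes by -0.21 (0.24), and 2 members (Nes and Zic5) had an unadjusted p under 0.05. Neither the response to RA (0 of 8 members called by limma, against 0% of all genes) nor that to LIF- (0 of 8, against 0%) was called as different between clones and parental lines. At an unadjusted p under 0.05 the members were Otx2 for RA and Otx2 and Pax6 for LIF-. Without LIF it changed by 0.91 and 0.83 in the parental lines and by 1.95 and 2.00 in the clones. The difference of 1.10 had an unadjusted p of 0.000145 and an adjusted p of 0.764 (limma). With RA it changed by -2.06 and -1.81 in the parental lines and by -0.98 and -0.76 in the clones, a difference of 1.06 with an adjusted p of 0.724 (limma). Both differences share the LIF+ arrays, where Otx2 read 1.99 on average in the parental lines and 1.03 in the clones, and the lines spanned 0.94 to 2.19 in LIF+, 2.63 to 3.10 in LIF- and -0.01 to 0.18 with RA. As the readings with RA were near background in every line, the change with RA is bounded by the level in LIF+.

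**Figure D5:**
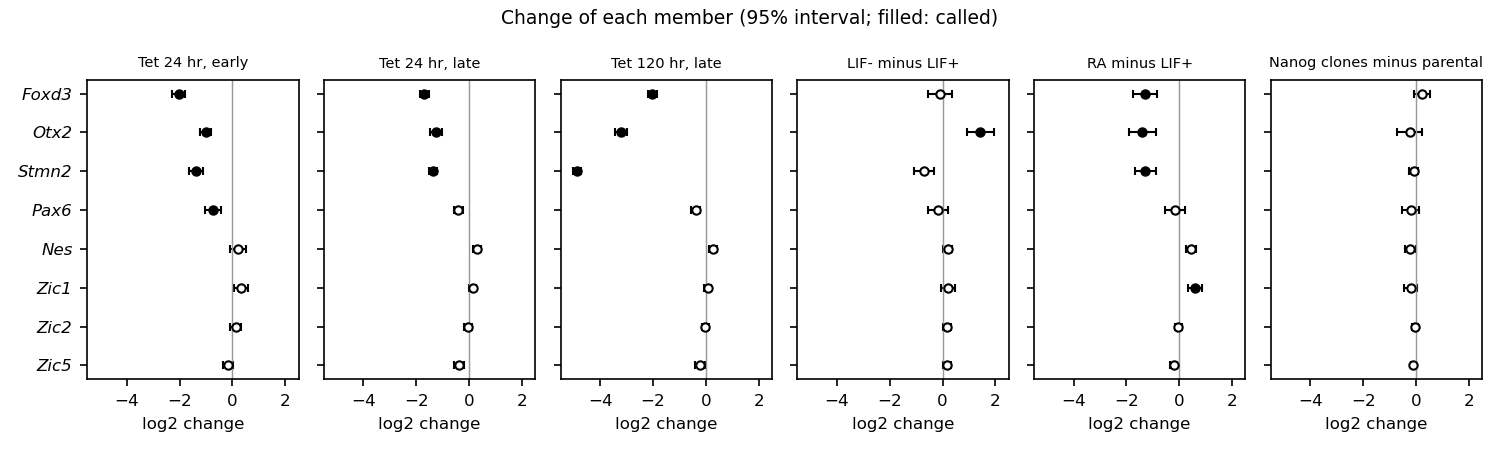
log2 change (x) of each member (y) with its 95% interval in 6 comparisons: 24 hr of Tet on either set of arrays, 120 hr of Tet, LIF- minus LIF+, RA minus LIF+ and Nanog clones minus parental lines. Filled points were called and open points were not. Foxd3, Otx2 and Stmn2 are filled on the left in all Tet panels and with RA, Otx2 is filled on the right in LIF-, and no point is filled for the clones.

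Related genes were counted from lists, without members. Beside these counts and those of the markers below stand the shares of all genes called. On the late arrays 14.6% rose and 10.6% fell at some time, and 3.95% and 3.62% after 24 hr. The early arrays had 7.47% that rose and 1.99% that fell. In LIF- 0.504% rose and 0.523% fell. With RA the shares were 4.64% and 1.22% against LIF+, and 4.05% and 1.64% against LIF-. Of 14 other epiblast genes measured on the late arrays, 2 rose at some time (Dnmt3b and Pou3f1) and 4 fell, among them Sox2, Tdgf1 and Utf1. At 120 hr Tdgf1, a Nodal co-receptor, changed by -4.61. Of the same 14, 2 rose on the early arrays (Fgf5 and Pou3f1) and 3 fell, among them Tdgf1 and Utf1. In LIF- 3 of the 14 rose, the most Fgf5, a growth factor of the formative epiblast (2.68), and with RA against LIF+ 1 rose (Sox4, 0.92) and 4 fell. With RA against LIF- 8 fell, the most Fgf5 (-2.92).

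Of 22 neural plate and regional genes on the late arrays, 4 rose, among them Irx3, Lhx2 and Msx1, and 2 fell (Gbx2 and Sox21). At 120 hr Irx3 rose by 4.13 and Sox21 changed by -0.74. On the early arrays 1 of 22 rose (Irx3) and 1 fell (Gbx2), whereas after 24 hr on the late arrays 1 rose (Irx3) and 0 fell. In LIF- 1 of 23 rose (Msx1, 1.45) and 1 fell (Gbx2, -1.11). With RA against LIF+ 6 rose and 1 fell (Gbx2), and against LIF- 3 rose. Of 19 genes of neurons and filaments, 5 rose (Cdh2, Nefl, Nefm, Tubb3 and Vim) and 2 fell (Crabp1 and Stmn1) on the late arrays. At 120 hr Tubb3 rose by 0.86 and Stmn1, a relative of Stmn2, fell by 1.89. On the early arrays 1 rose (Vim) and 2 fell (Elavl3 and Neurod1), whereas after 24 hr on the late arrays 3 rose (Cdh2, Tubb3 and Vim) and 1 fell (Crabp1). The change after 24 hr was called as different between the sets for 15.2% of all shared probes. It was called so for 2 of 13 epiblast genes and 2 of 21 neural plate and regional genes. Of the genes of neurons and filaments it was called so for 5 of 19 (Cdh2, Elavl3, Neurod1, Tubb3 and Vim). In LIF- 1 of 19 rose (Nefm, 1.27). With RA against LIF+ 3 rose, the most Stmn4 (1.58), and 3 fell, the most Neurod1 (-1.82), and against LIF- 3 rose, the most Vim (1.89), and 3 fell, the most Nefm (-1.43).

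Markers of other cell types moved with Tet and RA as well. On the late arrays 7 of 8 ES cell markers fell, 8 of 10 trophoblast markers rose, 3 of 8 primitive endoderm markers rose and 1 fell, 0 of 5 mesoderm markers were called, 1 of 5 neural crest markers fell (Crabp1) and 1 of 4 fibroblast markers rose (Postn). On the early arrays 3 of 8 ES cell markers fell by the brightest probe of each gene, besides Pou5f1, whose probe shared by all designs fell by 2.79 after 24 hr (limma, adjusted p = 0.00125) while its brightest one was under 1.5-fold. Also there, 6 of 11 trophoblast markers rose, 2 of 8 primitive endoderm markers rose and 1 fell, 1 of 5 mesoderm markers rose, 0 of 5 neural crest markers were called and 1 of 5 fibroblast markers rose. With RA against LIF+, 5 of 8 ES cell markers fell, 7 of 11 trophoblast and 5 of 8 primitive endoderm markers rose, 0 of 5 mesoderm markers were called, and 2 of 5 neural crest and 2 of 5 fibroblast markers rose. In LIF-, 2 ES cell markers fell, 1 trophoblast marker rose, and 0 primitive endoderm, mesoderm, neural crest or fibroblast markers were called. The part of such changes in the share of cell types in the values of the members was not tested.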

How the data were processed

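RNA of ZHBTc4 cells under Tet and of 4 lines in 3 media was hybridized on 40 two-color arrays. Per the labels, the authors processed the scans with Agilent Feature Extraction. They deposited mean signals and median local backgrounds of each spot as intensity values, and also processed signals. For each design the authors' own normalized log10 values were also deposited, and a column among them, treated as score values, was deposited with a code for missing in 10 cells. No fold changes of the authors were used.

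With limma 3.58.1 in R 4.3.3, spots marked as outliers were set to missing, saturated spots were kept, backgrounds were corrected by normexp with an offset of 50, and dyes were balanced by loess within arrays with control spots at weight 0. Spots of a probe were averaged as log2(Cy3/Cy5). Contrasts were fitted by lmFit and eBayes over all gene probes, two-sided, with Benjamini and Hochberg adjustment, and called at an adjusted p under 0.05 and 1.5-fold. Counts of genes used the probe with the highest mean Cy3 signal per symbol. Tables were prepared with the package data.table (version 1.17.8) and pandas 2.3.3 and plotted with matplotlib 3.10.9. The scripts were tested on simulated data.

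The number of arrays limits the precision. Gene names and promoter windows came from RefSeq (GRCm38.p6). All 8 members were named, other list genes only at the largest rise and fall of a contrast or where few were called, and some genes counted in the lists are not reported here by name. The members and lists were chosen with earlier results of these data known, and the steps between consecutive times were added after the values were seen. Alternatives were the processed signals, a correction for bleaching of Cy5, Cy3 alone, the deposited values, a filter on dim probes, the study's error variance, a replicate block, only the 2 parental lines, and leaving out each array, line or pair. Sox2 suppression, shRNA and ChIP data were not used here.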

Additional observations from a re-analysis of the deposited data

Results flagged for a closer look

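Pax6 with RA was the 1 result that stood apart within a group. Its log2 ratio in ES 129.3 was 0.45, whereas those of MG1.19, the Nanog EF1 clone and the Nanog episomal clone were 0.08, 0.10 and 0.12. The gap was large against the range of the 4 lines by Dixon's test. This test was made on 24 groups of member and medium, and chance flags about 1 in 20 of them. Of 24 tested differences, between the early and late arrays after 24 hr or between clones and parental lines, none passed the adjusted threshold.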

How the results depend on the processing

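No result changed direction while called. With the study's error variance, 0 members were called on the early arrays and in LIF-, 2 with RA against LIF+ (Foxd3 and Stmn2) and 1 with RA against LIF- (Otx2), and 3 remained called on the late arrays. The difference between the designs at 24 hr was called for 2 members with the processed signals and for 2 with the deposited values (Foxd3 and Pax6 in both), and for 1 with Cy3 alone (Otx2). In LIF-, 2 were called with Cy3 alone (Otx2 and Stmn2) and 0 in only the 2 parental lines. Leaving out each line gave 0 to 1 calls in LIF- and 1 to 3 with RA against LIF-, and leaving out each array gave 3 to 4 early and 3 late calls. Of the values of single genes, 674 kept their side of the threshold, 16 lost and 5 gained a call. Same-numbered arrays did not deviate together throughout (mean r 0.11 for early and 0.16 for late arrays, lowest -0.14 and -0.43), although 10 of 10 early and 12 of 18 late arrays correlated best with their own number. With 2 arrays at each early time, the deviations from their mean mirror each other. The early agreement of the second array of a time therefore repeats that of the first. With the replicate block, 4 members were called in the early set and 3 in the late set. A block by scan date was not run, since the file headers used here give no scan date, and using every probe of a gene changes nothing, since each member has 1 probe per design. Signal over background limits Otx2 from 48 hr on and with RA, Foxd3 on the late arrays with Tet and with RA, and Stmn2 after 120 hr. It also limits Nes on the late and Zic2 on the early arrays, and all values of Zic1, Zic5 and Pax6. The filter on dim probes drops Zic1 from the late arrays.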
